A study of Caenorhabditis elegans with 2 samples.

Results

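The regions described here are 413 peaks of the SNPC-4 profile that lay in intergenic sequence and far from the start of any annotated gene. A peak was a member when its summit fell outside every protein-coding gene and more than 500 bp from every annotated transcript 5′ end, with the ends of piRNA genes not counted. The 413 members are 17.8% of the 2319 nuclear peaks in the thresholded list, which holds 2347 peaks with the mitochondrial ones. Sequence that meets the same rule makes up 25.3% of the nuclear genome, and 27.97% of the relaxed nuclear peaks outside the thresholded list (7734 of 27652) met it. The rule used positions alone, within a list that the authors had already selected for agreement between the replicates.

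The study profiled SNPC-4 by chromatin immunoprecipitation with sequencing (ChIP-seq) in Caenorhabditis elegans larvae of the first stage (L1). The strain, OP179, has the genotype unc-119(ed3) III; wgIs179, in which an inserted transgene supplies SNPC-4 with an eGFP tag (a green fluorescent protein). Whole worms of both sexes were pooled, so a peak cannot be assigned to a tissue, and both samples, biological replicates 1 and 2, form a single group with no second condition. Fragments of 150 to 350 bp were selected. Signal means the deposited value of a peak, whose scale no source used here states, so it is compared within a list only. With no read counts at hand, the depth behind the peaks is unknown. A single group allows no test between conditions, and the comparisons with other peaks or sequence below are descriptions, none of them tested.

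SNPC-4 is the worm counterpart of the largest subunit of SNAPc, the small nuclear RNA activating protein complex. SNAPc binds a proximal sequence element a short distance upstream of small nuclear RNA (snRNA) genes and, in nematodes, of the genes for the spliced leader (SL) RNAs that are joined to the front of messenger RNAs. In C. elegans SNPC-4 is also known from the germline, where it gathers at clusters of piRNA genes. Intergenic sites away from annotated genes can hold transposon remnants, unannotated genes, or the sites through which the dosage compensation complex is recruited to the X chromosome.

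The sequences of the highest members show most directly what these sites contain. The following lines give the 8 members of highest signal, apart from those on the chromosome whose sequence is not printed, as 75 bases on each side of the summit on the plus strand of ce11. Capitals mark a match to the element found upstream of genes for snRNAs, SL RNAs and snoRNAs (small nucleolar RNAs), or 1 of the words described further on.
X:15345469-15345619 (plus strand): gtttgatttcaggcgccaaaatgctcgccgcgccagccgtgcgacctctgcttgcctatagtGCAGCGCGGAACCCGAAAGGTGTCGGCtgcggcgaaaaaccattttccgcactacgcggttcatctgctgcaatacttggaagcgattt
II:5200300-5200450 (plus strand): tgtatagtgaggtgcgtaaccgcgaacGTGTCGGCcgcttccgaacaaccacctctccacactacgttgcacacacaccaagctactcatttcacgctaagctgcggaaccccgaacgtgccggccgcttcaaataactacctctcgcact
X:2892023-2892173 (plus strand): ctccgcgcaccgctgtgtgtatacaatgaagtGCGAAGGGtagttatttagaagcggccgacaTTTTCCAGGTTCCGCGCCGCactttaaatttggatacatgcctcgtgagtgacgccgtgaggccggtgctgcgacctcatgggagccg
IV:991176-991326 (plus strand): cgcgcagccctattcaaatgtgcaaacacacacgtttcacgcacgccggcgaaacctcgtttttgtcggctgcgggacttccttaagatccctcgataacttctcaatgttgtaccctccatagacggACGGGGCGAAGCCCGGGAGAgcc
III:9408458-9408608 (plus strand): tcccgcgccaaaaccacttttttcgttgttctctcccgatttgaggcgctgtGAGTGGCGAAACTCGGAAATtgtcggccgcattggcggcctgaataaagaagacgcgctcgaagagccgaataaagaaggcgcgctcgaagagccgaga
X:14637574-14637724 (plus strand): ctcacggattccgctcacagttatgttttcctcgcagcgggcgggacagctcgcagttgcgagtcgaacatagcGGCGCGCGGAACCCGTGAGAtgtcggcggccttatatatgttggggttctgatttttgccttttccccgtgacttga
X:13700787-13700937 (plus strand): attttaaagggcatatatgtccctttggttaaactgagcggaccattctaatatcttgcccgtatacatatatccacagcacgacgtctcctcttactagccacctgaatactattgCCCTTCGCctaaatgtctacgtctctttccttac
IV:14612221-14612371 (plus strand): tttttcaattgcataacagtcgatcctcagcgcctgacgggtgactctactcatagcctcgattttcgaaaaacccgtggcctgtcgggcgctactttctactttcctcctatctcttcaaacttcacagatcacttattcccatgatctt
Of these 8, 5 hold a match to the upstream element. X:2892023-2892173 holds in addition the word GCGAAGGG. II:5200300-5200450 holds only the word GTGTCGGC, found beside the element elsewhere, and X:13700787-13700937 holds GCGAAGGG on the minus strand, a word that among members occurred on X alone. IV:14612221-14612371 holds none of them.

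The upstream element was taken from annotated genes, not from the members. A matrix of 20 bases was fitted to the 100 bases upstream of 141 snRNA, SL RNA and snoRNA genes that had a summit within 250 bp, and no member lies there. Its fit began from CGGAACCC, the run that its strongest positions keep. Of the 141 upstream sequences it was fitted to, 73 (51.8%) reached the score counted as a match below, and the others did not. In all 40 bound snRNA and SL RNA genes with a match, the match lay on the strand of the gene. Its first base was between 80 and 64 bases upstream of the 5′ end, with a median of 67. Among 33 bound snoRNA genes with a match, 30 had it on the strand of the gene, and it began between 89 and 22 bases upstream. The next lines set 4 genes of these 3 kinds beside the 8 highest members with a match that could be printed, all written in the direction of the match, with the 20 matched bases in capitals.
R07E5.16, III:10989598-10989639 (plus strand): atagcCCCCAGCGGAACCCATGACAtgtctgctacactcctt
sup-6, II:12944996-12945037 (minus strand): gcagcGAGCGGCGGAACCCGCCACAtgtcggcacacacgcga
sls-2.8, III:12250392-12250433 (plus strand): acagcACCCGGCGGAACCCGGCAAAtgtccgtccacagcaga
Y53F4B.47, II:15025943-15025984 (minus strand): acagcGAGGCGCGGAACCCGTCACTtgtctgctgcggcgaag
X:15345526-15345567 (plus strand): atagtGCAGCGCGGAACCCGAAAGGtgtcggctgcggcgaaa
X:2892069-2892110 (minus strand): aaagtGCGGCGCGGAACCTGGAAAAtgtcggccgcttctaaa
IV:991299-991340 (plus strand): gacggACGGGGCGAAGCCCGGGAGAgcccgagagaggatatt
III:9408505-9408546 (plus strand): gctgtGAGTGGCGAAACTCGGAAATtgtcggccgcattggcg
X:14637643-14637684 (plus strand): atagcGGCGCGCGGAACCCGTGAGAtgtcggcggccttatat
II:905531-905572 (plus strand): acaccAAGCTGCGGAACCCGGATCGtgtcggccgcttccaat
X:16091404-16091445 (minus strand): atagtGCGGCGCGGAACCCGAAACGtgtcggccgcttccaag
X:16629338-16629379 (minus strand): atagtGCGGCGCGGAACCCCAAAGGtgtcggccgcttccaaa
R07E5.16 and sup-6 are annotated as snRNA genes, sls-2.8 as an SL RNA gene and Y53F4B.47 as a snoRNA gene. In these 4 genes and in most of the 8 members the capitals are followed at once by a run that begins tgtc, which the matrix of 20 bases does not cover. A matrix of 30 bases fitted to the same genes extended into it.

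Upstream element matches were found within 100 bp of the summit in 55 of 413 members (13.3%, exact 95% binomial interval 10.2 to 16.98%). The interval treats members as independent sites, which members of the families described below are not. The score that counted as a match was the 99th percentile of windows 500 bp to each side of all nuclear summits, and in the flanks of the members themselves it was reached in 7 of 826 (0.847%). Among relaxed far intergenic peaks outside the thresholded list the share was 1.82% (141 of 7734), and over all far intergenic bases it was 0.944%. Members with a match had a median signal of 62.6, and the other members 47.2. The share was 34.0% (17 of 50) among the members of highest signal and 24 of 100 among the first 100. Against 13.3% of all members, a match was held by 83 of 255 peaks inside coding genes and more than 500 bp from a start (32.5%), by 65 of 388 near a start inside a coding gene (16.8%) and by 78 of 1263 intergenic peaks near a start (6.18%). 

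**Figure D1:**
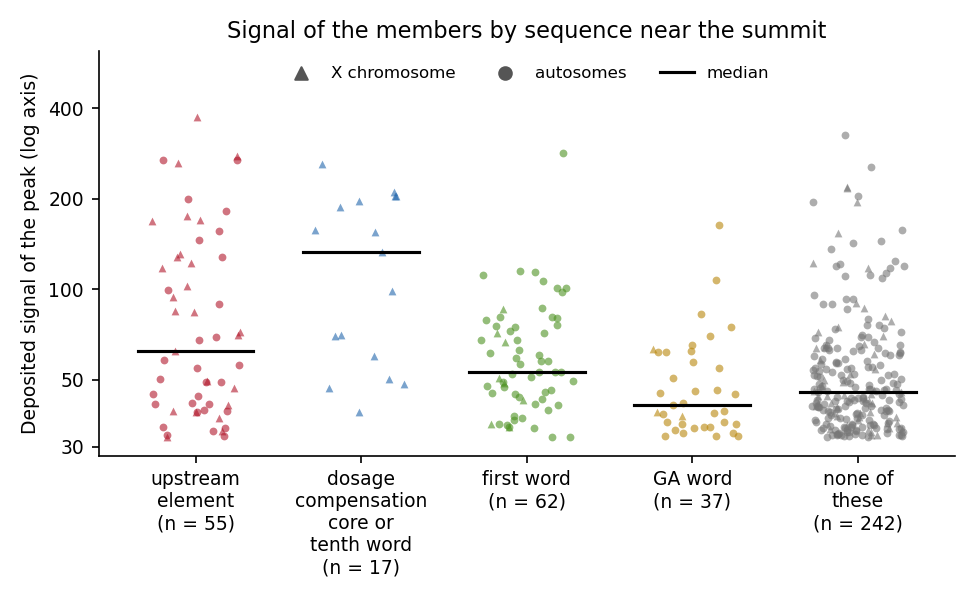
Signal of each of the 413 members (log axis), grouped by the sequence near the summit in the order given, each member counted once. Triangles are members on the X chromosome, circles members on autosomes, and the bar is the median, which was 62.6 with the upstream element, 132.5 with the dosage compensation core or the tenth word, 53.1 with the first word, 41.3 with the GA word and 45.7 with none of these.

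Most members with the element lay in sequence with many similar copies in the genome. Of the 55, 46 (83.6%) had 5 or more other copies by alignment of 301 bases around the summit, with a median of 117 copies, against 31 of the 358 members with no match (8.66%). Among members with fewer than 5 other copies, 9 of 336 held a match (2.68%). Copies were not counted for the relaxed peaks, so their 1.82% is no background for that share. Sequence with 5 or more other copies was not particular to members, of which 77 of 413 had it. Of peaks inside coding genes and more than 500 bp from a start, 97 of 255 had it. Near a start, 106 of 388 peaks inside a coding gene and 116 of 1263 intergenic peaks had it. Alignment of the members to one another gave 10 families covering 70 members. The largest held 33 members, 20 of them on X and 22 with a match, at a median identity of 78.7% over a median of 146 bases. The next held 13 members, 12 with a match, and the one after it 8 members, 7 with a match. Members of a family are copies of one sequence and not independent sites, and no source used here states how reads from such copies were placed. In a separate measure of single-copy sequence around the summit, the median share was 98.2% for members with a match, and 25 of the 55 were single-copy throughout. For members with no match the median was 100%, and 321 of 358 were single-copy throughout. The part of copy number in the result was not tested.

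Bound sites were a small share of the places that hold the element. Far intergenic sequence held 1292 places with a match, and 53 of them (4.10%) had a thresholded summit within 100 bp. The share went up with the score of the match, from 0.742% of 539 places below a score of 10 bits to 2.16% of 324 places between 10 and 12, 4.26% of 188 between 12 and 14, and 14.1% of 241 at 14 or above. A score is the log2 ratio of the matrix to background bases, summed over the 20 positions.

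The match lay close to the summit. Its centre was a median of 20.5 bp from the summit in the 55 members (quartiles 9.0 and 48.5 bp), and within 25 bp in 33 of them. At the 73 bound snRNA, SL RNA and snoRNA genes with a match the median distance was 5.5 bp and 66 (90.4%) were within 25 bp. The members were therefore less tightly placed on the match than those genes, which the matrix was fitted to.

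**Figure D2:**
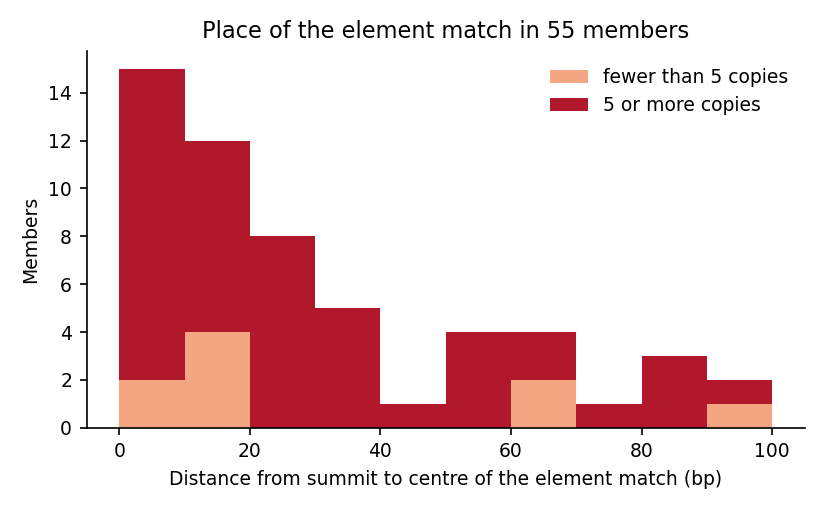
Distance in bp from the summit to the centre of the 20-base match in the 55 members that hold one, in bins of 10 bp, with members of 5 or more genomic copies in dark red and those of fewer in light red. Of the 55 members, 33 lie within 25 bp.

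Words of 8 bases common at members were also sought directly, on either strand within 50 bp of the summit, against windows 500 bp away. Each of 12 rounds took the word with the largest excess over those windows, among members without an earlier word. The counts in members and in those windows are therefore no test of a word. The first 4 words and the tenth are described, picked with the results known. The second word found, GTGTCGGC, was in 41 members (9.93%) and in 0.659% of relaxed far intergenic peaks. Peaks inside coding genes and more than 500 bp from a start held it more often, in 58 of 255 (22.7%). In 16 of 20 members that held both, it began exactly at the last base of the element match and on its strand. The fourth word, GCGCGGAA, was in 30 members (7.26%), and in 23 it began at the fourth base of the match. It was in 0.582% of relaxed far intergenic peaks and in 18.4% of the peaks inside coding genes away from a start. In those members the words and the match form one run, which continues into the tgtc stretch shown in the lines above. The other 21 members with GTGTCGGC had no element match. Many of these members are copies of one another, and the spacing was not compared between families.

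Among members, 2 further words were found on X alone. The first of them was picked from the 12 words chosen with its results known. Its place on X and its signal are therefore not independent support. The tenth word, GCGAAGGG, was found in 9 members, and all 9 were among the 108 on X (8.33%), with none among 305 on autosomes, which by the limit of 3 counts for a count of 0 allows a share of up to 0.984%. The core of the motif known for recruitment of the dosage compensation complex, GCGCAGGG, was then searched because of that, after the values were seen, and was within 50 bp of the summit in 9 members on X and 0 on autosomes. Within the same distance the other nuclear peaks on X held the core in 3 of 281 (1.07%) and those on autosomes in 0 of 1625, and far intergenic sequence of X in 0.0542% of windows. The tenth word was in 2 of 281 other nuclear peaks on X (0.712%) and also in 4 of 1625 on autosomes (0.246%), and within 100 bp the core was in 2 of those 1625. Within 100 bp of the summit, 18 members held 1 or both of the words. The next lines show the 7 of highest signal, with the words in capitals, in the direction of the word.
X:2892039-2892078 (plus strand): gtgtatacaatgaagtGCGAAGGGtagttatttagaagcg
X:13700888-13700927 (minus strand): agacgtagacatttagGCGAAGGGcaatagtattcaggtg
X:806658-806697 (plus strand): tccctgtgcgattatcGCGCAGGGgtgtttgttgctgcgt
X:11094210-11094249 (minus strand): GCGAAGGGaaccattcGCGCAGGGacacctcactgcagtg
X:14525884-14525923 (minus strand): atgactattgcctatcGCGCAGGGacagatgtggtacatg
X:16682156-16682195 (minus strand): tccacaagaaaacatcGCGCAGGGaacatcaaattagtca
X:9465867-9465906 (plus strand): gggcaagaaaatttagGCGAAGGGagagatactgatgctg
At X:11094210-11094249 both words occur side by side, 8 bases apart.

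Members with these words were among the highest. The 18 had a median signal of 143.7, against 48.3 for all members, and 10 of them were among the 50 members of highest signal. Far intergenic sequence of X held 31 places with the core, of which 12 (38.7%) had a thresholded summit within 100 bp, and the 54 such places on autosomes had none. For the tenth word it was 10 of 49 places on X (20.4%) and 0 of 124 on autosomes. Of the 17 members with the words and no element match, 1 had 5 or more copies in the genome, against 77 of all 413 members (18.6%) and 36 of 108 on X. The nearest coding end was a 3′ end for 14 of the 17, against 40.0% of all members and 38.4% of those on autosomes. Between convergent genes lay 7 of the 17, against 5.57% of all members and 3.28% of those on autosomes. All 17 were on X, and the shares for nearest end and convergent genes are not given here for X members alone. The profile holds no sample of the dosage compensation complex, so whether it occupies these sites was not measured.

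Of the 8-base words chosen, AGACGCAG was in the largest number of members. It was in 63 members (15.3%) and in 0.572% of far intergenic windows. It was also in 5 of 826 flanking windows, but the word was chosen by that very contrast. It was in 54 of 305 members on autosomes (17.7%) and 9 of 108 on X (8.33%), where far intergenic windows held it in 0.647% and 0.303%. Intergenic peaks near a start held it in 9.34% and relaxed far intergenic peaks in 1.82%. Of all 1497 places with the word in far intergenic sequence, 97 (6.48%) had a thresholded summit within 100 bp, 82 of 1322 on autosomes (6.20%) and 15 of 175 on X (8.57%). Only 1 of the 63 lay in sequence of 5 or more copies. The 6 members of highest signal with the word that could be printed read as follows, with the word in capitals.
X:806676-806715 (minus strand): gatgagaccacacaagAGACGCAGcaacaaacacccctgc
V:16356063-16356102 (minus strand): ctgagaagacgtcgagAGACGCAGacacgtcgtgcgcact
V:4143308-4143347 (plus strand): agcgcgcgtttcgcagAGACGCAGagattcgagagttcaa
IV:2219606-2219645 (minus strand): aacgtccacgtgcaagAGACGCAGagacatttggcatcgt
II:12102546-12102585 (plus strand): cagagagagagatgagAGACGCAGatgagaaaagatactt
III:13061323-13061362 (minus strand): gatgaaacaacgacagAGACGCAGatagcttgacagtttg
The third word, GAGAGAGA, a run of GA, was in 46 members (11.1%), with 0.740% of far intergenic windows, and 8 members held it together with AGACGCAG. Members with the run and none of the other sequences had the lowest median signal of the groups, 41.3, and 1 of the 50 highest members was among them.

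A majority of members, 242 (58.6%), held none of the element, the core, the tenth word, AGACGCAG and the GA run. The share depends on that choice of words, since other words chosen in the search were not counted. Of these 242 members, 24 held GTGTCGGC or GCGCGGAA. Their median signal was 45.7 (quartiles 37.5 and 62.8), and 20 of the 50 highest members were among them. Among the 15 highest, the members II:5200234-5200522, X:2843551-2843819 and V:20803542-20803770, fell short of the 20-base matrix score but matched the matrix of 30 bases, and each belonged to the family of 33. With that matrix 68 members (16.5%) held a match, of which 35 were on X.

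Members were richer in G and C than relaxed far intergenic peaks and far intergenic sequence. Their GC is not set here against that of the other thresholded peaks, so it is not shown to be particular to members. The sequence from 100 bases before to 100 after the summit had a median GC of 45.8% in members, 32.3% in relaxed far intergenic peaks, and 33.8% of all far intergenic bases were G or C. The median was 53.7% in members with the element, 46.5% in those with AGACGCAG and 40.3% in those with the core or the tenth word. The words named above are rich in G and C, so their backgrounds differ from the members in composition, and the part of GC in the counts was not tested.

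In signal the members were on the low side of the list. Their median was 48.3 (quartiles 38.9 and 70.0, range 32.3 to 374.1), against 55.0 for intergenic peaks near a start, 53.1 for peaks near a start inside a gene and 51.0 for peaks inside genes away from a start. No member was among the 71 highest nuclear peaks, and 9 were among the first 100. The next 100 ranks held 23, and the last 819 ranks held 174 (21.2%).

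The highest member was X:15345405-15345680, with a signal of 374.1, nuclear rank 72, and ranks 83 and 88 in replicates 1 and 2. It lay in a gap of 11091 bp, 1398 bp beyond the 3′ end of Y15E3A.5, with nfki-1 on the other side. The second, II:5200234-5200522 (signal 325.1), lay 195 bp beyond the 3′ end of msp-50, a gene of the major sperm protein family, and ranked 95 and 94 in the replicates. The third, I:16888-17133 (284.5), lay in the gap of 646 bp between the convergent genes nlp-40, which encodes a neuropeptide precursor, and rcor-1, and held AGACGCAG. X:2891964-2892213 (277.8), between B0410.3 and F52B10.3, and IV:991117-991364 (269.8), between the divergent genes egrh-2 and lep-2, came next among those with the element. III:9408373-9408662 (268.1) lay 430 bp from a pseudogene, and X:14637531-14637774 (263.0) lay 710 bp from the non-coding RNA gene F54E4.5. Both held a match. Of the 15 highest members 9 were on X, and all 15 were among the 300 highest peaks of both replicates.

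Several of the higher members had a non-coding RNA gene as the nearest start, a little beyond the 500 bp limit. X:16091233-16091479 (signal 175.0) was 517 bp from the non-coding RNA gene C30F2.6, X:15663824-15664053 (168.9) was 600 bp from F59D12.9 and X:15159458-15159614 (127.6) was 561 bp from C11G10.11. X:16056440-16056734 (219.1), with no match, lay between the convergent genes T27A8.7 and T27A8.2, 782 bp from the snoRNA gene T27A8.8. V:1151336-1151679 (128.5) lay inside linc-128. Over all members 7 had a transfer RNA (tRNA), snRNA, SL RNA or snoRNA 5′ end within 1000 bp, and the median distance to one was 34608 bp. The rule itself bars such an end within 500 bp, and neither value was computed for other far intergenic sequence. Whether members lie farther from such genes than that sequence does was therefore not tested.

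A few members resembled small RNA genes in sequence. When 301 bases around each summit were aligned to all annotated tRNA, snRNA, SL RNA and snoRNA genes, 9 members aligned, all to snoRNA genes. Of these, 7 aligned over 33 to 49 bases to Y73F8A.1175, at 86.1 to 97.8% identity. The other two, X:16566451-16566616 (signal 122.0) and X:16565860-16566023 (84.4), aligned to T21F2.3 over 72 and 69 bases at 91.7% and 88.4%. Their summits lay 606 bp apart in a gap of 17169 bp between K08B5.1 and ser-1, a serotonin receptor gene. Their element scores of 24.9 and 23.1 bits were among the highest of the members, and they have 5 further copies each. No transcript was measured in this study.

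The replicates placed most members at the same sites. Among the 2347 highest peaks of each replicate a summit within 100 bp was found for 240 of 413 members in both (58.1%, exact 95% binomial interval 53.2 to 62.9%), against 63.6% of all nuclear peaks. It was found in replicate 1 only for 67, in replicate 2 only for 87 and in neither for 19. In the relaxed lists of both, 384 members had one (93.0%), against 93.1% of all nuclear peaks. The thresholded list was built from the agreement of these replicates, so neither share is independent support. Support followed signal: 189 of 206 members above the median signal were in the highest peaks of both replicates, and 51 of 207 at or below it. The signal of the list and the ranks come from the same replicates, so this relation is largely built in. Between the members' own quartiles of signal the share was 63.3%, and for other nuclear peaks of the same signals it was 65.3%.

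The sequence groups did not rank alike in both replicates. Of the 54 members with the element found in both relaxed lists, 41 ranked higher in replicate 2 and 13 in replicate 1, with median ranks of 874 and 1126. Members with the core or the tenth word went the other way, with 13 of 17 higher in replicate 1 and 3 in replicate 2, and median ranks of 171 and 576. In the members with none of these sequences the counts were 113 for replicate 1 and 108 for replicate 2. With the 2347 highest peaks of replicate 1 taken alone, 37 of 431 far intergenic peaks held the element (8.58%), and with those of replicate 2 alone 60 of 429 (13.99%). Depth and the preparation of the samples of each replicate are not stated, and their part was not tested.

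**Figure D3:**
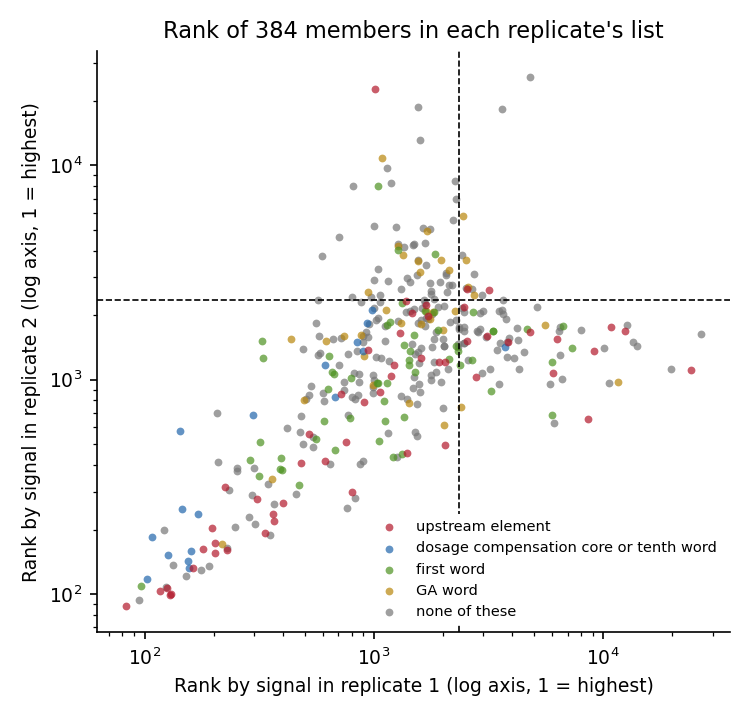
Rank by signal of the 384 members found in both replicates' relaxed lists (log axes, 1 is the highest peak), coloured by sequence group, with dashed lines at rank 2347. Of the members with the core or the tenth word (blue), 13 of 17 rank higher in replicate 1, and of those with the element (red), 41 of 54 rank higher in replicate 2.

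Members were spread over all 6 nuclear chromosomes, with 70 on I, 66 on II, 67 on III, 57 on IV, 45 on V and 108 on X. Per Mb of far intergenic sequence there were 23.5 on I, 22.7 on III, 19.6 on X, 17.8 on II, 11.2 on IV and 8.72 on V. Of the nuclear peaks on X 27.8% were members, on III 17.4%, and on V 45 of 375. X held 25 of the 50 members of highest signal, and 1 of the 50 highest other nuclear peaks. Those other peaks all exceeded every member in signal, so the comparison is not made at like signal. Of all members 26.2% were on X, and of all other nuclear peaks 14.7%. The median signal of members was 53.4 on X and 46.7 on autosomes, and of other nuclear peaks 52.1 and 54.3. Of those 25 high members on X, 19 held the element, the core or the tenth word. Over all 108 members on X, 25 held the element and 17 others held the core or the tenth word. The tenth word was picked with its place and signal known, and the core was searched after it, so the 19 are not independent support.

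X members lay toward the right end. The right part of X, cut in 3 equal lengths, held 64 of 108 (59.3%) with 36.3% of the far intergenic sequence, the left part held 33 and the middle 11 (10.2%, with 30.4% of the sequence). Per Mb this was 31.96, 17.99 and 6.57. The other nuclear peaks on X went the same way, with 50.2% in the right part and 20.6% in the middle. Of the 36 X members with 5 or more copies, 27 were in the right part, as were 18 of 25 with the element, while the core or the tenth word was in 8, 3 and 7 members from left to right. On autosomes the middle part held 93 of 305 members (30.5%), close to its 30.4% of the sequence, where other autosomal peaks had 39.1%.

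**Figure D4:**
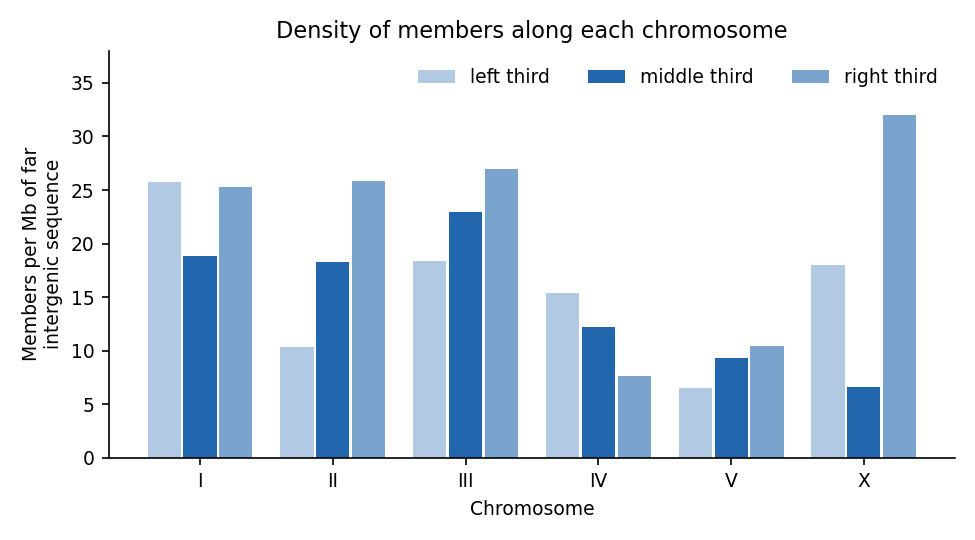
Members per Mb of far intergenic sequence in the left, middle and right part of each chromosome, each cut in 3 equal lengths (bars start at 0). On X the right part has 31.96 per Mb and the middle 6.57.

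The next coding genes were most often in tandem. Of the members 252 (61.0%) lay between genes of the same strand, where 54.2% of far intergenic bases and 55.8% of relaxed far peaks do. Divergent neighbours flanked 138 (33.4%, against 31.98% and 35.1%) and convergent neighbours 23 (5.57%, against 13.6% and 9.09%). The 23 convergent members had a median signal of 69.4 in gaps with a median of 2721 bp, and 10 of them were autosomal (3.28% of 305). The nearest coding end was a 3′ end for 165 members (40.0%), against 45.7% of far intergenic bases and 41.4% of relaxed peaks. That 3′ end was a median of 779 bp away (8 to 12340 bp), and a nearest 5′ end, for the other 248, a median of 1372 bp (512 to 15040 bp). The rule bars a 5′ end within 500 bp but sets no limit for a 3′ end. The medians therefore cannot show whether members lie closer to gene ends than to starts, and neither was computed for the background. A 3′ end as the nearest coding end lay within 500 bp for 66 members (15.98%) and 14.8% of relaxed far peaks.

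Gaps between coding genes were narrower for members than for the background. The median gap was 5124 bp for members, 6821 bp for relaxed far peaks and 6741 bp per base of far intergenic sequence. The largest was 40322 bp, on IV between jac-1 and Y105C5B.1418, and held the member IV:16028481-16028824 (signal 53.0). IV:14612186-14612401 (254.5) and IV:14612699-14613042 (33.3) shared the next, of 35563 bp, between irld-18 and dmd-6, a gene of the family related to doublesex. The nearest counted 5′ end was a median of 1249 bp away, and it was that of a coding gene for 310 members, of a non-coding RNA gene for 64 and of another class for the remaining 39. The members farthest from any start were III:12583463-12583806, at 8234 bp from aakg-1, a subunit gene of the AMP-activated kinase, X:17505788-17506131, at 8103 bp from nhr-1, a nuclear hormone receptor gene, and X:14938323-14938476, at 7924 bp from the start of mrp-5, a transporter gene.

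The piRNA genes, whose starts the rule did not count, were near some members. A piRNA 5′ end lay within 500 bp of 19 of 413 members. Of these 19, 16 were among the 57 members on IV, the chromosome known for its piRNA clusters. The median signal of the 19 was 46.6. The same share was not computed for other far intergenic sequence, so whether 19 is few or many was not tested. Inside an annotated non-coding gene lay 6 members, all in long intergenic RNA genes, and 4 lay in pseudogenes. Another nuclear summit within 1000 bp was present for 37 members (8.96%) and for 6.98% of other nuclear peaks.

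At the limit of the rule the nearest members were II:14251683-14252026 (signal 54.9, 502 bp upstream of Y54G11A.2), X:1837760-1838103 (39.1, 509 bp from a pseudogene start) and the peak upstream of smo-1, which encodes the worm SUMO protein (61.5, at 511 bp). The nearest peaks outside it lay 494 bp upstream of the non-coding RNA gene R10E11.10 (108.2), 493 bp upstream of F46H5.2 (47.6) and 492 bp upstream of mai-2 (40.7).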

How the data were processed

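Peaks of 1 group with 2 biological replicates, as labelled, were analysed on ce11. The deposited lists give coordinates, a signal value and a −log10 q-value per peak as the authors made them; the authors' thresholded list combines the replicates by reproducibility, and a list with weaker peaks was deposited for either replicate and for both together. Aligner, peak caller and depth are not stated, the labels name a possible control, and ce10 lists were not used. Coordinates and signal were used; the −log10 values the authors deposited reach at most 2.95 in the thresholded list and set no threshold here.

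Peaks were placed on Ensembl release 115 genes (WBcel235, the ce11 sequence). The members, lists and words were chosen with earlier results of these data known. Named members are the 15 of highest signal, the highest per chromosome, the 3 farthest from a start, the 3 in the largest gaps, those with the element among the 50 highest, those at the distance limit, and up to 5 that align to small RNA genes. The element matrix was fitted by expectation maximisation, and a match reached 8.39 bits within 100 bp of the summit. Copies were blastn alignments at an e-value of at most 1e-10, and small RNA alignments at 1e-05. Replicate support means a summit within 100 bp. Intervals are exact binomial ones, the limit for a count of 0 is 3 counts of the total, and both cover counting error only. They treat members as independent sites, which copies in a family are not. No p-value was computed. The matrix fit was checked on simulated sequences. Tools were Python 3.11.15, numpy 2.4.6, pandas 2.3.3, scipy 1.17.1, matplotlib 3.10.9 and blastn 2.17.0.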

Additional observations from a re-analysis of the deposited data

How the results depend on the processing

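Of 86 alternative values, 64 stayed within the counting interval of the reported value and 22 moved beyond it. That interval treats members as independent sites, which copies in a family are not. The far intergenic share of nuclear peaks was 29.5% at a distance of 250 bp, 11.1% at 1000 bp, 15.1% in peaks above the median signal of the list and 15.8% on autosomes. At 250 bp, 32.3% had a 3′ end nearest, 38.8% lay between divergent genes and 33.6% in the middle part of the chromosome, which was 30.5% on autosomes and 36.6% with a wider centre. Convergent neighbours flanked 9.20% above that median and 3.28% on autosomes. Above it the median signal was 75.6 and 95.4% had support in both replicates; that support was 45.0% within 50 bp and 93.0% with all relaxed peaks. Element matches were in 17.8% of members above it, 2.68% of members with fewer than 5 copies, 9.84% on autosomes and 6.54% with a score exceeded by 1 in 1000 flanks. Leaving out a replicate gave 8.58 to 13.99% for the element and a median signal of 22.5 to 27.4, which is on each replicate's own scale. The settings with autosomes, few copies and 30 bases were added after seeing the data. No paired analysis was possible because there is a single group. Depth and the placement of reads in copies are unknown and limit the element counts.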
